A study of Caenorhabditis elegans with 2 samples.

Results

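The small nucleolar RNA (snoRNA) genes of Caenorhabditis elegans that lie outside a host gene were examined for occupancy by AMA-1, which is the largest subunit of RNA polymerase II. Members were all genes of biotype snoRNA in the Ensembl WBcel235 annotation that do not lie wholly within a protein-coding gene on the same strand. The rule gave 163 of the 346 snoRNA genes, out of 46890 nuclear genes of all biotypes, and used no peak. Of the 163, 124 lay between protein-coding genes, 33 lay inside a protein-coding gene on the opposite strand, and 6 overlapped the edge of one. Their lengths ran from 62 to 344 bases with a median of 134. Chromatin immunoprecipitation with an antibody against ama-1 was followed by sequencing in whole early embryos of the wild-type strain N2, males and females pooled, of unknown age. A single group of 2 biological replicates, each from its own biosample, makes up the study, and no second condition was compared. The 2 replicates share a control per the deposited text notes, and that control was not analysed here.

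Most snoRNAs guide the modification of ribosomal and spliceosomal RNA. Box C/D snoRNAs guide the methylation of riboses, and box H/ACA snoRNAs guide the conversion of uridine to pseudouridine. Many animal snoRNAs are cut out of the introns of host messages and share the host's promoter, whereas others are made from transcription units of their own. RNA polymerase II makes most messages and many small nuclear RNAs, while RNA polymerase III makes tRNAs from promoters inside the gene.

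The letters just upstream of the members come first, since the peaks are grouped by them afterwards. Hexamers in the 100 bases upstream of each gene were ranked by their share in the members minus their share before protein-coding genes, whatever the peaks. TGTCGG led, in 23 members (14.1%) against 0.781% of protein-coding genes, and CGGAAC followed, in 21 members (12.9%) against 0.746%. Both overlap other leading hexamers such as GCGGAA and GTCGGC, so they are not separate finds. The commonest arrangement was CGGAAC, 8 bases of any kind, then TGTCGG, in 15 members. Some of these are close copies of each other, as described further on, and copies were counted as separate genes here and in the hexamer ranking. A looser form, CGNAAC, 8 bases of any kind, then TGTC, was written down after the upstream bases of members with high peaks had been seen, and it contains the stricter form. It was present in 25 members and is called the spaced letters below. The 9 upstream stretches shown carry it and belong to members with a high AMA-1 summit. They are RefSeq genome sequence of WBcel235, 80 bases ending just before the annotated 5' end and written 5' to 3' on the gene's strand, with the matching letters in capitals. They lie at chrIV:8428740-8428819 (minus strand) for T26A8.6, chrIV:867134-867213 (minus strand) for Y55F3BR.9, chrII:5701582-5701661 (plus strand) for C18A3.12, chrII:8091629-8091708 (plus strand) for K02C4.7, chrII:15025894-15025973 (minus strand) for Y53F4B.47, chrIII:9717300-9717379 (plus strand) for C07A9.14, chrIV:4347552-4347631 (plus strand) for W03B1.17, chrIV:4880851-4880930 (minus strand) for T08B6.64 and chrV:8247962-8248041 (minus strand) for C16D9.10.
T26A8.6: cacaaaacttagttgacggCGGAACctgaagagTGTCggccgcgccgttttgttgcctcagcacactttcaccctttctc
Y55F3BR.9: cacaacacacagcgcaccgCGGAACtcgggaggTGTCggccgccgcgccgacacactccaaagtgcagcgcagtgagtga
C18A3.12: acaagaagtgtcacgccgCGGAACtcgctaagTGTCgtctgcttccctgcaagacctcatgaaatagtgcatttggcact
K02C4.7: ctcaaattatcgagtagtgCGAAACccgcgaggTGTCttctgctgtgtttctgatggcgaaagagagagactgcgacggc
Y53F4B.47: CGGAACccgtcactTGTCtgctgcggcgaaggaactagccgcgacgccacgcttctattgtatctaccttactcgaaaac
C07A9.14: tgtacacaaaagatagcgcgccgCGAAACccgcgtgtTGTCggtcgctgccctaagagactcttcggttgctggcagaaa
W03B1.17: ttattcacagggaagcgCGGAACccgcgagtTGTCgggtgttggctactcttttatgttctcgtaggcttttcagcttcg
T08B6.64: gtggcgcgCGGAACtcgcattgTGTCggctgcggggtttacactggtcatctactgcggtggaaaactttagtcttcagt
C16D9.10: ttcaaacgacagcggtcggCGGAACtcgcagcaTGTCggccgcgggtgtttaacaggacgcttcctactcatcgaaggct

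In these 9 stretches the capitals open 57 to 80 bases before the annotated 5' end. Over all 25 members with the spaced letters the first capital lay 57 to 88 bases before the 5' end, with a median of 63, and in 19 it lay between 50 and 70 bases before it. When both strands were searched, no member carried them on the opposite strand. The stricter form stood before 15 of 163 members (9.2%), 2 of 183 snoRNA genes inside same-strand hosts (1.09%), 4 of 19973 protein-coding genes (0.02%) and 42 of all 46890 genes (0.0896%). The looser form stood before 25 members (15.3%), 10 hosted snoRNA genes (5.46%), 5 protein-coding genes (0.025%) and 100 of all genes (0.213%). Among the other biotypes it was found before 37 of 129 small nuclear RNA genes (28.7%), whose promoters in animals are known to hold a proximal sequence element upstream of the start. A match is a description of letters only.

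A second kind of upstream sequence is shown because it was seen, with the peaks in view, before another group of members. The letters GTTCNANNC are those of the B box, the inner promoter element of tRNA genes. They occurred on the gene's strand in the 100 bases before 21 members (12.9%), or 23 (14.1%) when either strand was counted, beside 12 hosted snoRNA genes (6.56%) and 652 of all genes (1.39%). No member had both these and the spaced letters. The 3 stretches below belong to members with a pooled summit of rank 2000 or better, at chrV:15191094-15191173 (minus strand) for Y75B12B.12, chrIV:7574042-7574121 (plus strand) for F32E10.10 and chrIII:502724-502803 (plus strand) for F30H5.4.
Y75B12B.12: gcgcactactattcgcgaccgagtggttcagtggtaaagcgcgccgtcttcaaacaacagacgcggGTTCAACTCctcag
F32E10.10: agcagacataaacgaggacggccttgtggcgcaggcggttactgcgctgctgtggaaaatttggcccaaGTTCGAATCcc
F30H5.4: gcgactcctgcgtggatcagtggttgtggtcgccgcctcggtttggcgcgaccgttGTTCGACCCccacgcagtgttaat

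The B box letters opened 10 to 64 bases before the 5' end, with a median of 14, and 16 of the 21 members had them 10 to 16 bases before it. The annotation places no tRNA gene on the member's strand in the upstream window of any of the 21, and the opposite strand was not searched. The other 117 members had neither set of letters.

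Peaks were taken from the deposited lists on ce11, whose sequence is WBcel235. The optimal list, thresholded for irreproducible discovery rate per the deposited text notes, holds 724 peaks, and each of the 3 longer lists (both replicates pooled, replicate 1, replicate 2) holds 30000 peaks that include background. The signal of a peak has no stated scale, so it was used only as a rank within its list, 1 being the highest. Optimal peaks kept their rank in the pooled list. Read depth is unknown, and the intervals given are exact binomial 95% intervals over genes that cover counting error only. The share allowed by a count of 0 is instead an approximate limit, 3 divided by the number of genes. A summit was counted for a gene when it lay inside it or within 200 bp of its nearer end. Positions along a gene start from 0 at the annotated 5' base and are negative upstream.

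AMA-1 had an optimal summit at 16 of the 163 members (9.82%, 5.72 to 15.5), and 12 of these were in the upper part of the list (the 362 highest peaks). The same rule counted 1.52% of all nuclear genes, 1.49% of 8994 other noncoding genes no longer than the longest member (piRNA genes left out), and 7.65% of snoRNA genes inside same-strand hosts (14 of 183, 4.25 to 12.5). Bases within 200 bp of an optimal summit make up 0.283% of the nuclear genome. The intervals of the members and the hosted snoRNA genes overlapped. Among members between genes 12 of 124 had an optimal summit (9.68%), and among those antisense to a protein-coding gene 4 of 33 (12.1%). Of the 6 with a partial overlap 0 had one, which allows a share of up to 50% (45.9% by the exact interval).

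The replicates gave different counts. Among the 724 highest peaks of each replicate's own list, replicate 1 had a summit at 8 members (4.91%, 2.14 to 9.44; all nuclear genes 1.5%) and replicate 2 at 18 (11.0%, 6.68 to 16.9; all nuclear genes 1.53%). The mean was 7.98% ± 4.34 (SD, n = 2). Of the 16 members with an optimal summit, 6 were within the top 724 of both replicates. Each of the 16 had its own summit, so none shared a summit with another member.

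With more of the pooled list taken, the members and the hosted snoRNA genes parted. In the 2000 highest pooled peaks 22 members had a summit (13.5%; all nuclear genes 3.46%), and 21 hosted genes (11.5%). In all 30000 pooled peaks 45 members had one (27.6%, 20.9 to 35.1) against 109 hosted genes (59.6%, 52.1 to 66.7), with 19.1% of all nuclear genes. The rise of the hosted genes thus came at low ranks, while 16 of the members' 45 summits were already among the 724 highest. The remaining 118 members had no pooled summit, and 101 had none in any of the 3 long lists.

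**Figure D1:**
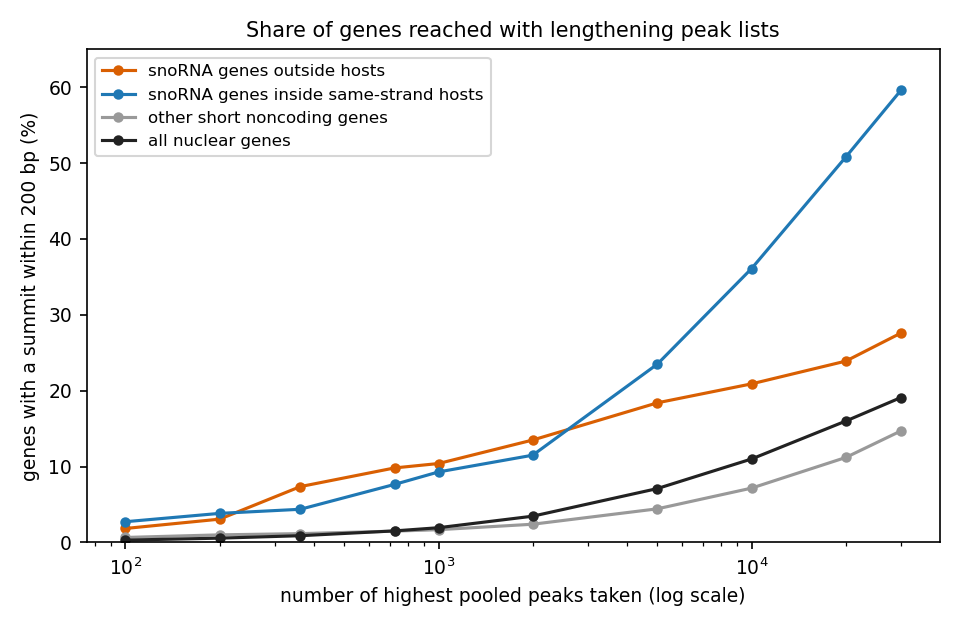
Share of genes with a summit within 200 bp (y axis, percent) against the number of highest pooled peaks taken (x axis, log scale), for snoRNA genes outside hosts, snoRNA genes inside same-strand hosts, other short noncoding genes and all nuclear genes. The 2 snoRNA curves run close up to 2000 peaks, at 13.5% and 11.5%, and end at 27.6% and 59.6%.

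The member with the highest summit was F59C6.15, a snoRNA gene of 173 bases (chrI:10516978-10517150, minus strand, between genes). Its pooled rank was 38, its rank in replicate 1 was 46 and that in replicate 2 was 40. The 3 ranks were alike, but the places were less so, at 202, 218 and 132 bases from the 5' end in the same order. The pooled summit lay 30 bases past the 3' end and that of replicate 1 lay 46 past it, whereas that of replicate 2 was inside the gene. The pooled summit is also 373 bp past the 3' end of nlp-4, a neuropeptide-like gene. T26A8.6 (chrIV:8428614-8428739, minus strand) ranked 51 pooled, 198 in replicate 1 and 39 in replicate 2. Its summits sat inside the gene in all 3 lists, at 96, 112 and 83 bases from the 5' end, and 65 bp past the end of tmem-231. Y74C9A.6 (chrI:3747-3909, minus strand) ranked 100 pooled, 523 in replicate 1 and 63 in replicate 2. Its summits too lay inside the gene, at 96, 124 and 54 bases, and 303 bp past the 3' end of homt-1 for the pooled one. These 3 were the only members within the upper 100 of the pooled list, and all carried the spaced letters.

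Among the members inside an opposite-strand gene, Y55F3BR.9 (chrIV:867056-867133, in Y55F3BR.2) stood highest, with ranks of 105 pooled, 307 in replicate 1 and 82 in replicate 2. Its summit was 96 bases from the 5' end in the pooled list and in replicate 1, and 132 in replicate 2, all just past the 78 bases of the gene. K02C4.7 (chrII:8091709-8091782, in ltd-1) ranked 240, 1340 and 137 in the same order. Here replicate 1 was low, and its summit at 131 bases stood apart from those of the pooled list and replicate 2, at 53 and 58. C07A9.14 (chrIII:9717380-9717458, in ncx-7, a sodium and calcium exchanger gene) ranked 309 pooled and 80 in replicate 2, and had no summit in replicate 1. R08C7.19 (chrIV:4447506-4447639, in chat-1) ranked 645, 1992 and 709, and it also sits inside a noncoding RNA gene on its own strand, R08C7.17. The summits at R08C7.19 lay far downstream of it, at 297, 302 and 305 bases. The pooled one was inside chat-1, only 11 bp past the 5' end of chat-1. It was also 343 bp past the 3' end of htz-1, the gene of histone variant H2A.Z. Of these 4, R08C7.19 alone lacked the spaced letters. Whether AMA-1 at an antisense member was on the snoRNA or on the gene around it cannot be told apart, since the peaks carry no strand.

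Between genes, C18A3.12 (chrII:5701662-5701726) ranked 209 pooled, 197 in replicate 1 and 401 in replicate 2, and W06H8.17 (chrV:6227355-6227550) ranked 210, 91 and 498. These 2 of the 16 had a better rank in replicate 1 than in replicate 2. The C18A3.12 summits lay at 63, 85 and 49 bases, on or near the end of a gene of 65 bases. Those of W06H8.17 lay at 110, 112 and 15, all inside its 196 bases, and the whole gene sits inside a noncoding RNA gene on its strand, W06H8.12. W03B1.17 (chrIV:4347632-4347831) ranked 333, 999 and 387, with summits at 105, 105 and 106 bases. Its 3 lists placed the summit almost on one base, and no protein-coding gene lay within 500 bp of it. T08B6.64 (chrIV:4880738-4880850) ranked 359, 932 and 442, with summits inside the gene at 95, 82 and 95 bases.

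A lower rank in replicate 1 than in replicate 2 was clearest at 3 further members. Y53F4B.47 (chrII:15025814-15025893) ranked 258 pooled, 3413 in replicate 1 and 111 in replicate 2, and C16D9.10 (chrV:8247888-8247961) ranked 377, 5272 and 172. Y75B12B.12 (chrV:15190976-15191093) ranked 372, 18602 and 134. In replicate 1 the summits of all 3 lay past the gene's 3' end, at 274, 106 and 216 bases from the 5' end. The pooled summits lay at 174, 48 and -31 bases, so that of Y53F4B.47 was past the 3' end too, by 95 bases. T28B8.11 (chrI:8135840-8135955) ranked 135 pooled and 207 in replicate 2, and had none in replicate 1. Its pooled summit was 196 bases upstream, near the edge of the 200 bp allowed, and no protein-coding gene lay within 500 bp of it. F32E10.10 (chrIV:7574122-7574191) had the lowest rank of the 16, with 686, 2368 and 821. Its 3 summits were close together, at 16, 11 and 9 bases upstream of the 5' end.

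**Figure D2:**
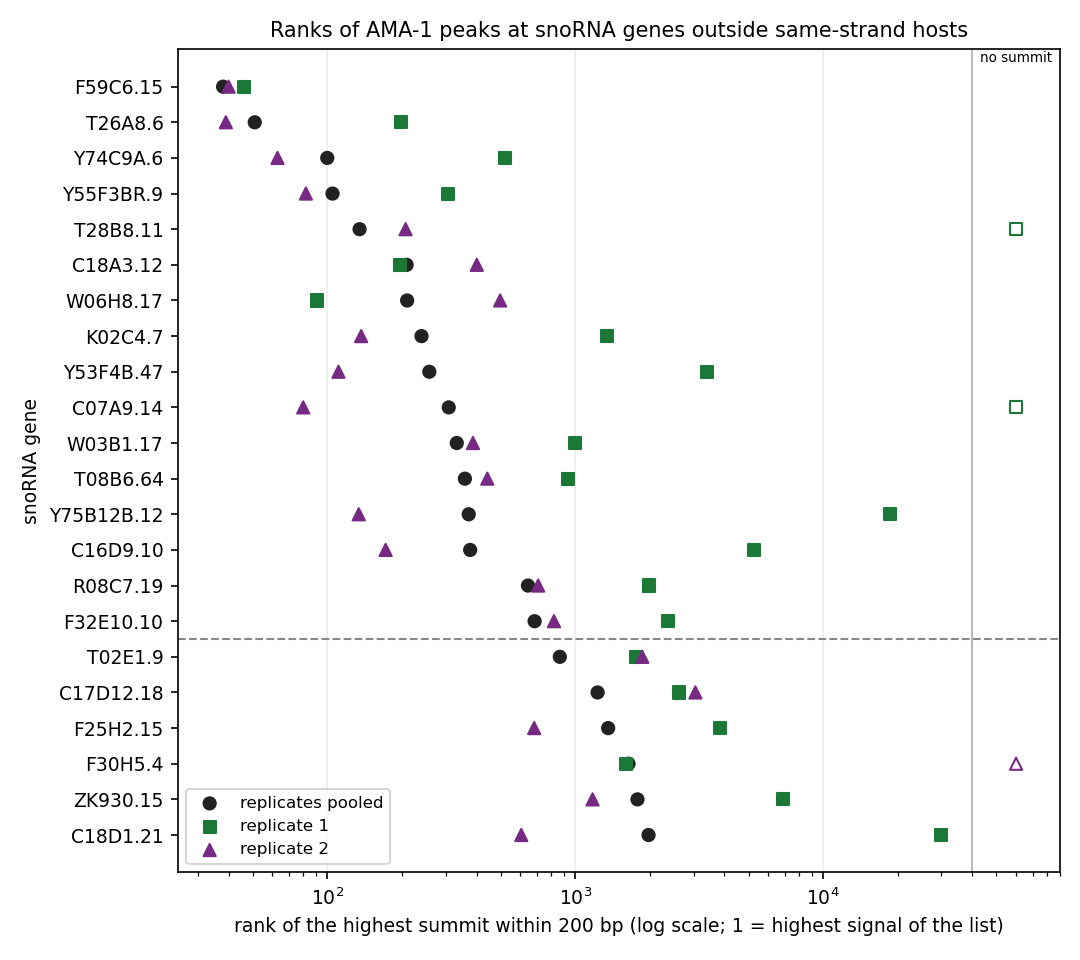
Rank of the highest summit within 200 bp (x axis, log scale, 1 is the highest signal of a list) at the 22 members with a pooled summit of rank 2000 or better, in the pooled list (circles), replicate 1 (squares) and replicate 2 (triangles), with open symbols for no summit. The 16 members above the dashed line have an optimal summit, and at 12 of the 14 with a summit in both replicates the rank of replicate 2 is the better one.

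Over the 16 members the pooled ranks ran from 38 to 686 with a median of 249. All 16 had a summit in replicate 2, with a median rank of 154.5, and 15 were within its top 724. In replicate 1, 14 had a summit, with a median rank of 965.5, and 6 were within its top 724. The optimal list thus followed replicate 2 more closely than replicate 1 at these genes. At the 14 members with a summit in both replicates, the replicates' summits were 47 bp apart in the median and at most 284 bp apart, and they lay within 25 bp of each other at 4.

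Some members were high in only 1 replicate. T06C12.16 (chrV:15873855-15873926) ranked 164 in replicate 1 and K07C10.2 (chrII:11167217-11167303) ranked 555 there, and neither had a summit in replicate 2 or the pooled list. The gene smy-3 (chrV:14092572-14092651), which carries the spaced letters, ranked 71 in replicate 2 and had no summit within 200 bp in replicate 1 or the pooled list. These 3 were named after their values were seen. A pooled summit was 3745 bp from smy-3 at its nearest, and a summit of replicate 1 with rank 28863 lay 208 bp from it, just beyond the limit.

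The 6 members with a pooled rank between the end of the optimal list and 2000 show the values just outside it. T02E1.9 ranked 867 pooled, 1754 in replicate 1 and 1864 in replicate 2, and C17D12.18 ranked 1231, 2621 and 3053. F25H2.15 ranked 1358, 3833 and 683, and ZK930.15 ranked 1783, 6861 and 1175. These 4 had summits in every list, unlike F30H5.4, which ranked 1640 pooled and 1598 in replicate 1 and had none in replicate 2. C18D1.21, antisense within die-1, ranked 1976 pooled, 29801 in replicate 1 and 606 in replicate 2. Pooled summits lay inside the gene at C17D12.18 (89 bases) and F25H2.15 (142 bases), and upstream at the other 4, by 83 to 168 bases. Another 23 members had a pooled summit of a rank beyond 2000.

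At the 16 members the optimal summit lay inside the gene in 8, past its 3' end in 5 and upstream of its 5' end in 3, with a median of 96 bases from the 5' end (-196 to 297). In replicate 1 the counts were 5 inside, 8 past the end and 1 upstream, with a median of 112, and in replicate 2 they were 9, 4 and 3, with a median of 70.5. Summits of the 14 hosted snoRNA genes lay upstream in 8, inside in 1 and past the end in 5, with a median of -65.5. The 14 had 13 distinct summits, since C51F7.3 and C51F7.4 shared one that was upstream of both. The peaks themselves were 104 to 370 bp wide, wider than the gene at 15 of the 16 members. The annotated 5' end of a snoRNA gene need not be where transcription starts.

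**Figure D3:**
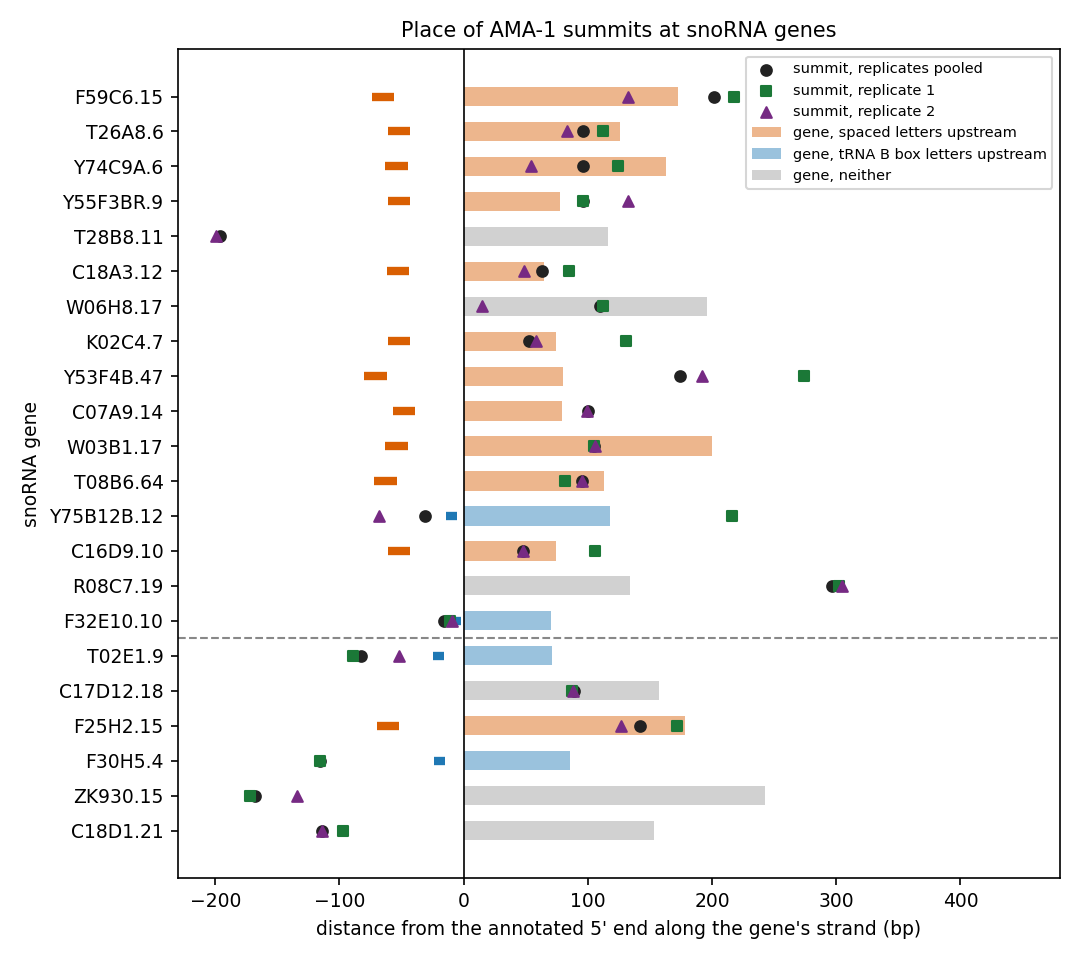
Place of the highest summit within 200 bp along each gene's strand (x axis, bases from the annotated 5' end at 0) for the 22 members with a pooled summit of rank 2000 or better; wide bars are the genes, short bars upstream are the matching letters, and the symbols are the pooled list and the replicates. Pooled summits of genes with the spaced letters all lie to the right of 0, and those of the 4 genes with B box letters shown here lie to the left.

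Grouped by the letters upstream, the members differed in how often AMA-1 had a summit. Of the 25 with the spaced letters 11 had an optimal summit (44.0%), of the 21 with B box letters 2 (9.52%), and of the 117 with neither 3 (2.56%). The spaced letters had been loosened with high members in view, so their count describes these genes and supports nothing. For the stricter form, set without the peaks, 7 of 15 members with it had an optimal summit (46.7%), beside 9 of 148 without it (6.08%). In replicate 1's own top 724 peaks the counts were 4 of 15 and 4 of 148, and in replicate 2's they were 8 of 15 and 10 of 148. The direction was therefore the same in each replicate, with fewer members in replicate 1. The 15 are not all independent, since they include close copies such as T26A8.6 and T08B6.64, or F59C6.15, F25H2.15, F43A11.8 and Y67A10A.14. In the full pooled list 13 of the 25 had a summit, 8 of the 21 and 24 of the 117, with median ranks of 258, 2170 and 6019.

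**Figure D4:**
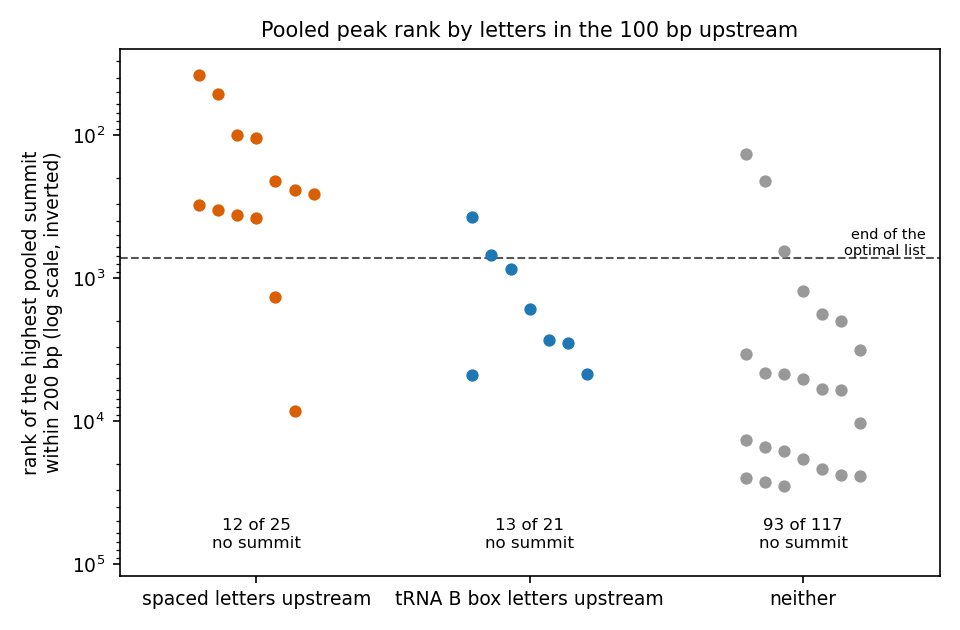
Rank of the highest pooled summit within 200 bp (y axis, log scale, inverted so that high peaks are on top) for members with the spaced letters, B box letters or neither in the 100 bp upstream; each point is 1 gene and the dashed line ends the optimal list at 724. Above the line are 11 of 25, 2 of 21 and 3 of 117 members, and 12, 13 and 93 had no pooled summit.

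The place of the summits is given by the same groups as a description, since both sets of letters were picked with these peaks in view. At the 11 members with the spaced letters the optimal summit lay inside the gene in 7 and past its end in 4, from 48 to 202 bases and with a median of 96, and in none was it upstream. No replicate placed the summit of any of the 11 upstream either. Counted from the first capital of the spaced letters, the summit lay 109 to 276 bases further on, with a median of 157. At both members with B box letters and an optimal summit, Y75B12B.12 and F32E10.10, it lay upstream, by 31 and 16 bases, although replicate 1 placed that of Y75B12B.12 216 bases downstream of the 5' end. In the full pooled list, 6 of the 8 members with B box letters and a summit had it upstream, and 2 had it inside the gene. Those 2 were T19B4.8, at 19 bases, and Y39G10AR.24, at 20 bases, named after their values were seen. At the 13 members with the spaced letters and a pooled summit it lay inside the gene in 9 and past its end in 4. Hosted snoRNA genes differed in part: of the 10 with the spaced letters 4 had an optimal summit, 1 inside and 3 past the end, and of the 12 with B box letters 4 had one, all upstream. These shares, 40.0% and 33.3%, were close. Of the 161 hosted genes with neither 6 had one (3.73%). Many of those hosted summits can also be the host's, which was not tested.

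The 14 members with the spaced letters and no optimal summit were F25H2.15, C05H8.3, smy-3 and 11 others, and 12 of the 14 had no pooled summit at all. Repeated sequence differed between them and the 11. The share of 31-base words in the gene and its 200 bp flanks that occur once in the genome had a median of 83.15% in the 14 (lowest 37.9%) and 97.1% in the 11 (lowest 77.5%), and it was under 90% in 9 of the 14 and 1 of the 11. Close copies among snoRNA genes, at least 80% identical over at least 50 aligned bases, were found for 9 of the 14 and 4 of the 11. How far mapping of reads to repeated sequence lowered the peaks was not tested. Over all members 7 had fewer than 50% unique words, and none of the 16 did.

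A pair of close copies both had optimal summits, and their genes are shown to let them be compared. T26A8.6 and T08B6.64 were identical at 108 of 113 aligned bases (95.6%). They are chrIV:8428614-8428739 (minus strand) and chrIV:4880738-4880850 (minus strand), RefSeq WBcel235 sequence on the gene's strand. Both are in lower case because neither met the rules of the search described further on, which needs box C and box D letters together. Each does hold the box D letters CTGA in its last 15 bases.
T26A8.6: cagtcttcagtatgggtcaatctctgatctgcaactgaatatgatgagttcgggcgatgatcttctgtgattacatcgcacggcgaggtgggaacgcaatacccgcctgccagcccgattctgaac
T08B6.64: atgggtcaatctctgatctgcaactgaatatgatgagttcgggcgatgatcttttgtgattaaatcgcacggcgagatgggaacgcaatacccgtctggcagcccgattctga

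The ranks of this pair, 51 and 359, were unlike although the genes are nearly the same. Their pooled summits lay at 96 and 95 bases from the 5' end, but the annotated 5' ends do not fall on the same base of the shared sequence. Counted from the first capital of the spaced letters, the summits lay 157 and 167 bases further on. In the same way Y53F4B.47 and C05H8.3 matched at 73 of 74 aligned bases (98.6%) and ranked 258 and 8514.

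F59C6.15 belonged to a family of 5 similar genes. It was 97.1% identical to F25H2.15 and to Y67A10A.14, 89.9% to F43A11.8 and 91.8% to the hosted T19C4.11. Of these F25H2.15 had the pooled rank 1358, and the other 3 had no pooled summit. In F59C6.15 itself 77.5% of the words were unique, the lowest share among the 16.

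Letters inside the genes were searched to place the members among the snoRNA kinds. Box C letters (TGATGA with at most 1 mismatch in the first 25 bases) together with box D letters (CTGA in the last 15) were found in 23 members (14.1%), beside 0.567% of the other short noncoding genes. The letters ACA in the last 8 bases of a gene of at least 100 bases were found in 27 members (16.6%), beside 6.88%. The remaining 113 met neither rule. A gene with only the C or only the D letters falls among them, such as F32E10.10, which has TGATGA in its first 25 bases. Of the members with an optimal summit 7 had the C and D letters, 1 had ACA (W06H8.17) and 8 met neither rule. The 6 genes shown have an optimal summit and both boxes, in capitals, at chrIV:867056-867133 (minus strand) for Y55F3BR.9, chrII:5701662-5701726 (plus strand) for C18A3.12, chrII:15025814-15025893 (minus strand) for Y53F4B.47, chrIII:9717380-9717458 (plus strand) for C07A9.14, chrV:8247888-8247961 (minus strand) for C16D9.10 and chrV:15190976-15191093 (minus strand) for Y75B12B.12, again RefSeq WBcel235 sequence.
Y55F3BR.9: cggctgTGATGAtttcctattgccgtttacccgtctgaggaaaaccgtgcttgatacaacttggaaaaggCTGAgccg
C18A3.12: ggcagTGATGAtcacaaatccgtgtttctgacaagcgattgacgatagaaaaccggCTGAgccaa
Y53F4B.47: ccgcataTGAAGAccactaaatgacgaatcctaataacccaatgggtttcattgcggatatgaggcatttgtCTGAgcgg
C07A9.14: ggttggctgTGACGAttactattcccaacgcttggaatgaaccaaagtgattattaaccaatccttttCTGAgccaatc
C16D9.10: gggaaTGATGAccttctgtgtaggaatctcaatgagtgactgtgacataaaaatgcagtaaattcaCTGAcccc
Y75B12B.12: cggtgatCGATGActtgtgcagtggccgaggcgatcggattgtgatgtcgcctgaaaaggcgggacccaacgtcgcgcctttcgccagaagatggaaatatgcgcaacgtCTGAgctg

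In each of the 6 the first box opens within a few bases of the 5' end and CTGA lies close to the 3' end. Y75B12B.12 is the only one of them with B box letters upstream, and the others have the spaced letters. Optimal summits were found at 7 of 23 members with the C and D letters, 1 of 27 with ACA and 8 of 113 with neither. The share over all members was 9.82%. Among hosted snoRNA genes the counts were 4 of 21, 4 of 58 and 6 of 104 in the same order, and the share over all of them was 7.65%. For other short noncoding genes with these letters the summits were not counted.

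Protein-coding genes were close to most of the 16 summits. At 9 members the pooled summit was downstream of such a gene by at most 500 bp, at 5 it was inside one and at 3 it was upstream of one by at most 500 bp, some members being counted more than once. Only those of T28B8.11 and W03B1.17 (12.5% of the 16) were farther than 500 bp from every protein-coding gene, beside 37 of all 724 optimal summits (5.11%). For the downstream, inside and upstream places no share over all optimal summits was counted. Upstream neighbours were W06H8.6 (430 bp), cmtr-1 (395 bp), the gene of a cap methyltransferase, and Y75B12B.11 (172 bp). The summit at R08C7.19, counted as inside, was 11 bp past the 5' end of chat-1. How much AMA-1 at the other members belonged to those neighbours was not tested.

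Members with an optimal summit were found on every autosome: 3 of 38 on chromosome I, 3 of 36 on II, 1 of 16 on III, 6 of 31 on IV and 3 of 19 on V. Of the 23 members on X 0 had one, which allows a share of up to 13% (14.8% by the exact interval). The share over all genes of each chromosome was not counted, so these counts cannot be called particular to the members. No member on X carried the spaced letters, and 2 of the 23 had a pooled summit.

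The genes for the proteins of snoRNA particles were looked up as the rest of the pathway. Known from yeast and mammals, fibrillarin (fib-1) is the methyltransferase of box C/D particles, whose other core proteins are nol-56, nol-58 and snu-13. Dyskerin (dkc-1) is the pseudouridine synthase of H/ACA particles, with garr-1, nhp-2 and nola-3, and ruvb-1 and ruvb-2 encode ATPases that help to assemble them. None of these 10 genes had an optimal summit between 500 bp upstream of the 5' end and the 3' end, which allows a share of up to 30.0%, beside 2.56% of all protein-coding genes. In the pooled list 8 of the 10 had a summit, the best at snu-13 (rank 2211), nol-56 (3898) and fib-1 (4157), and the lowest at ruvb-2 (10307). The share of all protein-coding genes with a pooled summit in that window was not counted, so the 8 of 10 has no background beside it. A pooled summit was found at 45 of the 163 members, of which 23 ranked beyond 2000. That count used summits within 200 bp of much shorter genes and cannot be compared with the 8 of 10.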

How the data were processed

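AMA-1 ChIP-seq peak lists on ce11 were used from 2 biological replicates of 1 group. Per the deposited text notes, the authors made an optimal list thresholded for irreproducible discovery rate and longer lists of peaks with background for each replicate and for both pooled. The signal value the authors deposited for each peak is a score without a stated scale, and only its order within a list was used, ties taking the mean rank. Neither aligner nor peak caller was given in the sources used here, and read depth is unknown. Lists on ce10 were not used.

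Genes came from Ensembl release 115 (WBcel235) and sequence from the RefSeq genome of the same build. Counting was done in Python 3.11.15 with pandas 2.3.3, numpy 2.4.6, SciPy 1.17.1 (exact binomial intervals) and Biopython 1.88 (local alignment of copies), and plots with matplotlib 3.10.9. The summit search was tested on simulated data. No test between conditions was possible and none was made. Genes named are every member with an optimal summit, every other member with a pooled rank of 2000 or better, their protein-coding neighbours and the snoRNA particle proteins, and further names are said to be so. The members and lists were chosen with earlier results of these data known. Alternatives changed the peak list, the replicate, the distance, the host rule, the neighbours and the mapping.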

Additional observations from a re-analysis of the deposited data

How the results depend on the processing

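No paired analysis was possible because the study has 1 group. The count of 16 members with an optimal summit was 12 to 22 under the other peak lists (the upper part of the list or the upper 2000 pooled peaks), 14 to 17 under other distances and peak overlap, and 14 to 16 when other overlaps or genes with few unique words were left out. On a single replicate's own top peaks it was 8 without replicate 2 and 18 without replicate 1, of which 6 and 15 were among the 16. It was 6 when a summit was required in the top peaks of both replicates, an alternative chosen after seeing the data. With summits in or within 500 bp of a protein-coding gene left out it was 2, and the median place of the summit, 96 bases from the 5' end, became -45.5 bases, because only T28B8.11 and W03B1.17 remained. In the other alternatives the median place was 82.5 to 104 bases. The 14 hosted snoRNA genes became 8 in the upper part of the optimal list, 6 within 100 bp and 0 away from protein-coding genes. Another rule for ties left the median rank at 249, and counting summits within 500 bp of the 5' end alone left the snoRNA particle proteins at 0. With 2 replicates that differ this much, and with peaks wider than most of the genes, neither the share of members nor a summit's place can be given more finely than these ranges.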
